A study of Rattus norvegicus with 3 samples.

Results

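The chemokines Ccl2, Ccl7, Ccl3 and Ccl4 and the receptors Ccr1 and Ccr2 recruit monocytes and other leukocytes into inflamed tissue. Transcripts of 5 of these 6 genes were read in single cells of diabetic rat wounds. The members were the rows of the feature list that carry these 6 symbols. This gave 5 genes of 32883 features, namely Ccl2 (ENSRNOG00000007159), Ccl7 (ENSRNOG00000000239), Ccl3 (ENSRNOG00000011205), Ccl4 (ENSRNOG00000011406) and Ccr1 (ENSRNOG00000006715), while Ccr2 was not analysed here. Full-thickness skin defects of 15 mm in wild-type male SD rats, made diabetic with 65 mg/kg streptozotocin and showing blood glucose over 16.7 mM, had been covered with a CO-releasing gel of hyaluronic acid (CO hydrogel), covered with the same kind of gel without the CO release (hydrogel), or left untreated. The skin was taken after 7 days and dissociated with enzymes at 37 °C, and the animals were 7 to 9 weeks old at injection and 8 to 10 weeks old per the design text. Streptozotocin, a toxin of pancreatic beta cells, was common to all 3 groups, and the labels do not give the number of animals per library. Each group had 1 library. No difference was therefore tested, no value has a replicate check, and every 95% interval covers counting error only.

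CC chemokines are small secreted proteins that bind G protein-coupled receptors on leukocytes and guide them along a gradient. Ccl2 and Ccl7 act mainly through Ccr2, the receptor that carries classical monocytes from bone marrow and blood into tissue. Ccl3 acts among others through Ccr1, a receptor of monocytes and neutrophils that Ccl7 binds as well, and Ccl4 is a close relative of Ccl3 made by activated macrophages and lymphocytes. In wounds these ligands are known from the early inflammatory phase, when neutrophils, macrophages and stromal cells release them.

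The libraries held 15376 barcodes with 109718517 UMIs (unique molecular identifiers, each marking 1 captured RNA molecule) for the CO hydrogel, 15442 barcodes with 109148721 UMIs for the hydrogel and 12883 barcodes with 78233883 UMIs for the untreated wound. Filtering kept 12659, 12069 and 10550 cells in the same order, with medians of 6096, 5941 and 2633.5 UMIs per cell. Between 364 and 600 barcodes were shared by any pair of libraries. Clustering without the members gave 25 clusters, and 5 marker-defined classes had at least 100 cells in each library. Macrophage or monocyte-like cells numbered 3240, 4786 and 2174, fibroblast-like cells 4998, 1720 and 1310, and neutrophil-like cells 450, 2061 and 5658. Endothelial-like cells numbered 1520, 793 and 299, and mural-like cells, the pericytes and smooth muscle of vessels, 1110, 965 and 583. Levels are counts per 1000000 UMIs of a class (CPM), and a ratio was called at 2-fold or more with at least 100 UMIs over both libraries. The makeup of the classes differed between libraries, so values are given by class and then by cluster.

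Over all kept cells Ccl2 and Ccl7 differed by less than 2-fold between libraries, while Ccl3 and Ccr1 differed widely. Ccl2 was at 3150 CPM with the CO hydrogel, 2226 CPM with the hydrogel and 3589 CPM without treatment. Ccl7 was at 958, 717 and 905 CPM in the same order, so both ligands were lowest in the hydrogel library. Ccl3 was at 231 CPM with the CO hydrogel, 970 CPM with the hydrogel and 3687 CPM without treatment. Ccr1 followed the same order at 28.5, 76.8 and 202 CPM, while Ccl4 was highest with the hydrogel at 613 CPM, against 490 CPM with the CO hydrogel and 383 CPM without treatment. Between CO hydrogel and hydrogel, 2 of 5 members were at least 2-fold lower, Ccl3 (log2 ratio -2.07, interval -2.09 to -2.05) and Ccr1 (-1.43, -1.50 to -1.37), where 4.94% of 12980 genes were. Over untreated, the same 2 genes were at least 2-fold lower in the CO hydrogel library, where 4.01% of genes were, and in the hydrogel library, where 2.64% were. The log2 ratios of Ccl3 were then -4.00 and -1.93, and those of Ccr1 -2.82 and -1.39. The median log2 ratio of all genes was 0.08 for CO hydrogel over hydrogel, 0.33 for CO hydrogel over untreated and 0.22 for hydrogel over untreated.

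The cells that held each transcript differed by ligand. Fibroblast-like cells held 47.6% of Ccl2 UMIs with the CO hydrogel, 41.2% with the hydrogel and 43.0% without treatment, and macrophage or monocyte-like cells held 31.5%, 39.8% and 35.8%. For Ccl7 the macrophage or monocyte-like class held 52.8%, 65.1% and 62.5% and the fibroblast-like class 37.8%, 27.01% and 29.5%. Ccl4 lay mainly in macrophage or monocyte-like cells, with 93.0%, 84.9% and 85.4% of its UMIs. The hydrogel library had a further 8.69% of Ccl4 in T or NK-like cells, where the CO hydrogel library had 1.69% and the untreated library 0.730%. Ccl3 had 86.2% of its UMIs in macrophage or monocyte-like cells with the CO hydrogel, 63.4% with the hydrogel and 32.2% without treatment. Neutrophil-like cells held 5.84%, 21.5% and 64.4% of Ccl3 in those 3 libraries, beside 3.55%, 17.1% and 53.6% of all cells. A cluster left unnamed held a further 0.228%, 11.4% and 0.529% of Ccl3, and counted as neutrophil-like it would bring those shares to 6.07%, 32.9% and 64.9%. Ccr1 had the same division, with 79.1%, 53.7% and 30.4% in macrophage or monocyte-like cells and 12.2%, 32.2% and 65.9% in neutrophil-like cells, or 12.6%, 42.6% and 66.7% with the unnamed cluster.

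**Figure D1:**
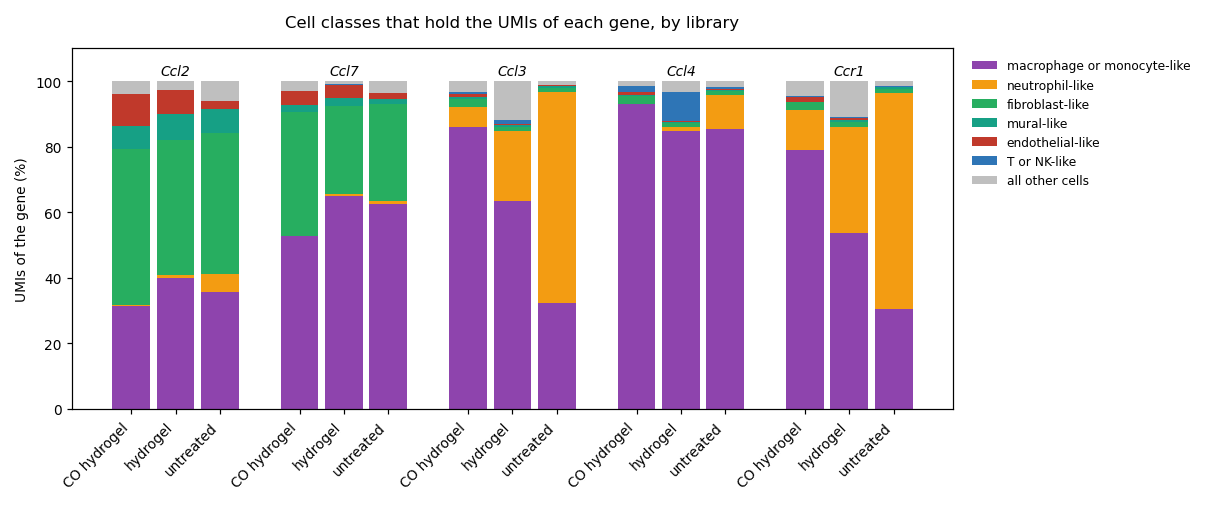
Share of each gene's UMIs (%, vertical axis) held by cell classes in the CO hydrogel, hydrogel and untreated libraries, with 1 stacked bar per library. Macrophage or monocyte-like cells hold between 84.9% and 93.0% of Ccl4 in the 3 libraries, whereas neutrophil-like cells hold 64.4% of Ccl3 in the untreated library and 5.84% in the CO hydrogel library.

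Free RNA can set a floor under such values, since droplets can carry transcripts from lysed cells. In fibroblast-like cells the number of Ccl3 UMIs for each Ccl4 UMI was 0.519 with the CO hydrogel, 1.76 with the hydrogel and 10.8 without treatment. Mural-like cells had 0.503, 1.66 and 11.4, endothelial-like cells 0.547, 2.11 and 12.4, and all cells together 0.470, 1.58 and 9.62. The stromal classes thus carried both genes near the ratio of the whole library, whichever library it was. With the hydrogel, however, the interval of endothelial-like cells (1.76 to 2.53) lay above that of the library (1.565 to 1.599). That of fibroblast-like cells (1.593 to 1.941) overlapped it at its lower end. Neutrophil-like cells instead had 23.7, 30.5 and 59.9, and macrophage or monocyte-like cells 0.436, 1.18 and 3.63. In fibroblast-like cells Ccl3 was at 12.1, 47.9 and 162 CPM and Ccl4 at 23.3, 27.2 and 15.0 CPM. These values, and those of both genes in mural-like and endothelial-like cells, are treated as possible background here. Whether free RNA gave them was not tested. Ccr1 in fibroblast-like cells was at 1.26, 4.83 and 8.21 CPM, from 59, 112 and 180 UMIs. The number of Ccl3 UMIs for each Ccr1 UMI was 9.61 (interval 7.34 to 12.8), 9.92 (8.16 to 12.2) and 19.7 (17.0 to 23.0) there, against 8.09, 12.6 and 18.3 in all cells, so the hydrogel interval lay below the value of its library. Whether free RNA gave the Ccr1 of stromal classes was not tested.

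**Figure D2:**
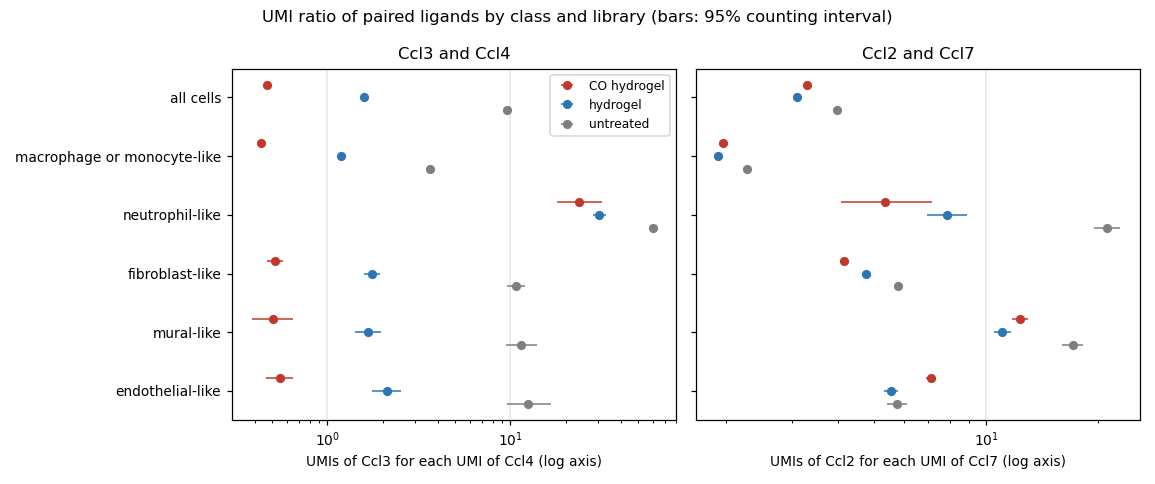
UMIs of Ccl3 for each UMI of Ccl4 (left) and of Ccl2 for each UMI of Ccl7 (right), on log axes, for all cells and 5 classes in the 3 libraries, with 95% counting intervals. Fibroblast-like, mural-like and endothelial-like cells lie near the value of all cells for Ccl3 and Ccl4 (0.470, 1.58 and 9.62), while for Ccl2 and Ccl7 the classes lie apart, from 1.90 in macrophage or monocyte-like cells with the hydrogel to 21.1 in untreated neutrophil-like cells.

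Ccl2, the main ligand of Ccr2, had distinct sources by class. Mast or basophil-like cells, a class of 85, 35 and 6 cells, had the highest Ccl2 of any class at 8577 CPM with the CO hydrogel, 14702 CPM with the hydrogel and 18578 CPM without treatment. Their Ccl7 was at 311, 339 and 404 CPM, so they held between 27.6 and 46.0 Ccl2 UMIs for each Ccl7 UMI, where macrophage or monocyte-like cells held between 1.90 and 2.27. Fibroblast-like cells had 2979, 3627 and 4858 CPM of Ccl2, mural-like cells 3132, 2033 and 2974 CPM, and endothelial-like cells 2580, 2141 and 1713 CPM. Dendritic-like cells (217, 100 and 79 cells) had 3620, 754 and 1214 CPM. Low levels were found in T or NK-like cells at 182, 198 and 212 CPM, in plasmacytoid dendritic-like cells at 433, 147 and 211 CPM and in keratinocyte-like cells at 209, 220 and 416 CPM. T or NK-like cells were used as the class that should lack Ccl2, but 1% of those cells held 11.9%, 50.8% and 51.7% of its UMIs, with up to 14, 135 and 60 UMIs in 1 cell, so their level is not an even floor. Neutrophil-like cells stood above all 3 of these classes at 552, 609 and 1131 CPM, from 332, 2320 and 13260 UMIs. Per cell, keratinocyte-like cells held more Ccl2 UMIs than neutrophil-like cells in each library, and T or NK-like cells fewer. Plasmacytoid dendritic-like cells held more per cell with the CO hydrogel and fewer in the other libraries. The part of free RNA in the Ccl2 of neutrophil-like cells was not tested. With every cell thinned to 1000 UMIs, which left out 795, 471 and 503 cells, 32.3%, 23.9% and 29.3% of neutrophil-like cells had a Ccl2 UMI, against 17.6%, 10.47% and 8.25% of T or NK-like cells. Without thinning those shares were 37.8%, 36.0% and 42.7% of neutrophil-like and 36.2%, 38.7% and 45.5% of T or NK-like cells, whose median depths were 1308.5, 1795 and 1952 UMIs for neutrophil-like and 2412.5, 3924.5 and 4718 UMIs for T or NK-like cells.

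Ccl7, which binds Ccr1 and Ccr3 besides Ccr2, was highest in macrophage or monocyte-like cells at 2517 CPM with the CO hydrogel, 1056 CPM with the hydrogel and 2180 CPM without treatment. Fibroblast-like cells had 719, 765 and 839 CPM, endothelial-like cells 362, 385 and 298 CPM, and mural-like cells 254, 184 and 174 CPM. Neutrophil-like cells had 103, 77.7 and 53.5 CPM, beside 55.5, 76.7 and 51.1 CPM in T or NK-like cells and 127, 60.4 and 36.4 CPM in plasmacytoid dendritic-like cells. In the hydrogel library 1 T or NK-like cell held 112 of the 204 Ccl7 UMIs of its class. The Ccl7 of neutrophil-like cells is therefore given as a level without a reading against free RNA, and the CO hydrogel value rested on 62 UMIs. Ccl2 and Ccl7 lie next to each other on chromosome 10 among the coding genes of the RefSeq annotation (GRCr8), as do Ccl3 and Ccl4.

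**Figure D3:**
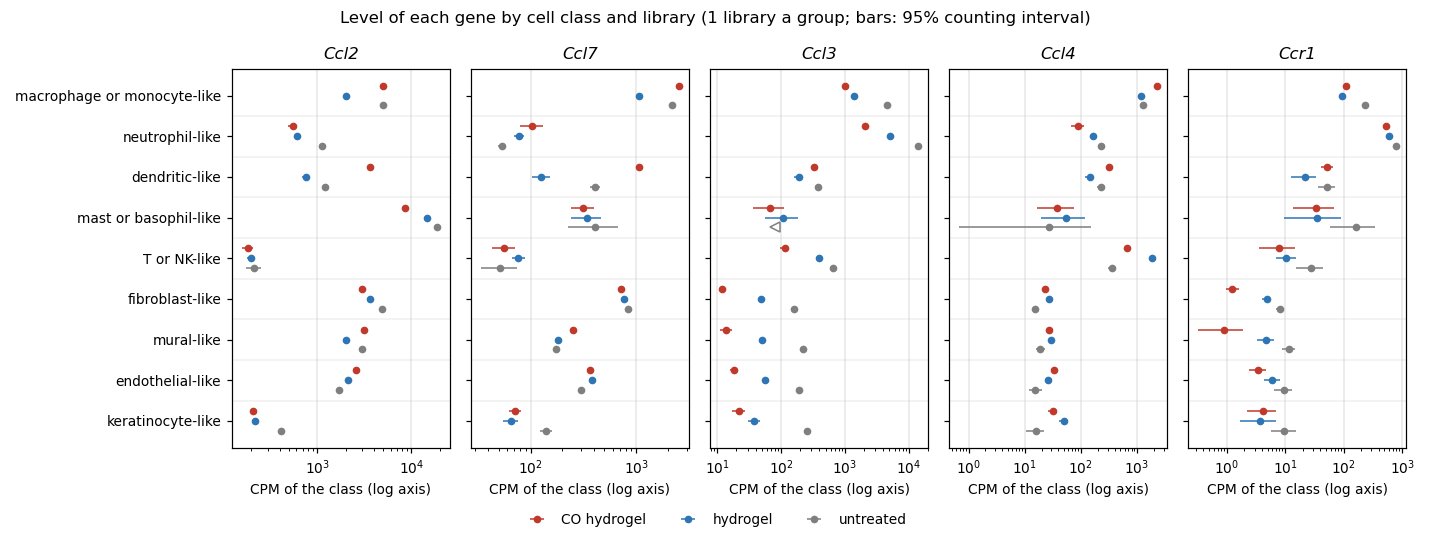
Level of each gene (CPM of the class, log axis) in 9 cell classes of the CO hydrogel, hydrogel and untreated libraries, with 95% counting intervals and an open triangle at 3 counts where no UMI was found. Ccl3 and Ccr1 are highest in neutrophil-like cells in each library, Ccl7 in macrophage or monocyte-like cells and Ccl2 in mast or basophil-like cells, while Ccl4 is highest in macrophage or monocyte-like cells in 2 libraries and in T or NK-like cells in the hydrogel library, with Ccl3 in neutrophil-like cells at 2086, 5024 and 13969 CPM.

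Promoter sequences are shown for the 2 of 5 members matched in the RefSeq table of rat promoters (GRCr8), the ligand Ccl7 and the receptor Ccr1. Each spans 250 bases before to 50 after the gene start, read in the direction of the gene. Capitals mark matches on either strand to short motifs. The AP-1 motif was searched as TGANTCA. The C/EBP-like motif was searched as TTGCNNAA. The kB-like motif was 3 G and 2 C with any 5 bases between them. The letters of the TATA box were TATAAA, and the marked matches do not overlap. Ccl7 lies at chr10:67513845-67514144 on the plus strand and Ccr1 at chr8:132439217-132439516 on the minus strand.
Ccl7: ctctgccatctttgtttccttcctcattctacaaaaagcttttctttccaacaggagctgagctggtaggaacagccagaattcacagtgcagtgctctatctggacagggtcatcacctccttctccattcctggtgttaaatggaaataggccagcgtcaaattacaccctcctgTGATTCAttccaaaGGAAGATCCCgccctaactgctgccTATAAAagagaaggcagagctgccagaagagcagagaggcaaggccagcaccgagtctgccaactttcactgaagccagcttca
Ccr1: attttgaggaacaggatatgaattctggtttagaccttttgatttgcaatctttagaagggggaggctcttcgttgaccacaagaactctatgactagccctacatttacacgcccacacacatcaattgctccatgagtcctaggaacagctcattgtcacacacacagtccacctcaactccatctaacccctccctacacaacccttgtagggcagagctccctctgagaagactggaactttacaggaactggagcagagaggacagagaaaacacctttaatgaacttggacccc
The Ccl7 window held an AP-1 match starting 73 bases before the gene start, a kB-like match starting 59 bases before it on the minus strand, and a TATA box starting 34 bases before it. No match to these letters lay in the Ccr1 window, and neither window held the C/EBP-like letters. Of 33469 rat promoters of that length, 47.3% held the kB-like letters, 7.33% the AP-1 letters, 10.6% the C/EBP-like letters and 14.2% the TATA box. A match is a description of the letters and not a site shown to be bound.

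In macrophage or monocyte-like cells the ligands of Ccr2 were higher at the class level in the CO hydrogel library than in the hydrogel library. Ccl2 was at 4936 CPM with the CO hydrogel, 2008 CPM with the hydrogel and 4955 CPM without treatment. Its log2 ratio was 1.30 for CO hydrogel over hydrogel (interval 1.28 to 1.31) and -0.01 for CO hydrogel over untreated (-0.02 to 0.01). Ccl7 had the corresponding ratios 1.25 (1.23 to 1.27) and 0.21 (0.19 to 0.23). Between CO hydrogel and hydrogel these 2 of 5 members were at least 2-fold higher, where 4.21% of 9691 genes were. Against untreated cells, hydrogel cells were at least 2-fold lower for 4 of 5 members, where 2.06% of 9513 genes were, namely Ccl2 (-1.30), Ccl7 (-1.05), Ccl3 (-1.71) and Ccr1 (-1.34). The corresponding count for the CO hydrogel was 2 of 5, Ccl3 (-2.21) and Ccr1 (-1.08), where 2.83% of 8832 genes were. The median log2 ratio of all genes in this class was 0.01, 0.17 and 0.16 for CO hydrogel over hydrogel, CO hydrogel over untreated and hydrogel over untreated.

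The class was made of 6 clusters that the libraries held in different numbers. Cluster 9 had the highest level of all 6 measured resident macrophage genes (Cd163, Mrc1, Lyve1, Folr2, F13a1 and Stab1) and made up 46.1% of the class with the CO hydrogel, 8.40% with the hydrogel and 16.2% without treatment. Cluster 15 was highest for 6 of 9 classical monocyte genes, among them Fcnb and Vcan, and made up 13.1%, 12.8% and 24.4%. Cluster 7, led by Spp1, made up 6.30%, 25.6% and 36.2%, and cluster 8, led by Cxcl11 and class II genes, 11.6%, 29.3% and 14.5%. Cluster 10 was highest for 4 of 8 Trem2 macrophage genes (Trem2, Gpnmb, Ctsd and Apoe). It made up 20%, 21.7% and 7.77%, and cluster 1, led by Acp5, Mt3 and Mmp9, 2.84%, 2.15% and 0.966%. With 1 library per group, a difference in these shares cannot be told apart from a difference between libraries.

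The resident-type cluster 9 carried the highest Ccl2, Ccl7 and Ccl4 of the class in every library. Its Ccl2 was at 9567 CPM with the CO hydrogel, 12858 CPM with the hydrogel and 9718 CPM without treatment, and its Ccl7 at 5316, 7970 and 5660 CPM. Ccl4 in that cluster was at 5088, 5981 and 3344 CPM. Each of the 4 ligands was lower there in the CO hydrogel library than in the hydrogel library, by log2 ratios of -0.43 for Ccl2 (interval -0.45 to -0.41), -0.58 for Ccl7 (-0.61 to -0.56), -0.53 for Ccl3 (-0.58 to -0.49) and -0.23 for Ccl4 (-0.26 to -0.21). For Ccl2, Ccl7 and Ccl4 the difference in cluster 9 was opposite in sign to that of the whole class. At 1000 UMIs per cell, 92.3%, 94.2% and 94.8% of the cells of cluster 9 had a Ccl2 UMI and 82.3%, 89.2% and 87.2% a Ccl7 UMI.

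The other clusters of the class differed among themselves. In cluster 8 Ccl2 was at 2222 CPM with the CO hydrogel, 824 CPM with the hydrogel and 2426 CPM without treatment, a log2 ratio of 1.43 for CO hydrogel over hydrogel. Cluster 7 had 1055, 812 and 4699 CPM of it and cluster 10 had 1015, 1220 and 3286 CPM, so in both the untreated library stood above the others. The monocyte cluster 15 had 5628, 5363 and 3904 CPM, lowest without treatment. Cluster 7 had 445, 409 and 1860 CPM of Ccl7, and cluster 8 had 536, 361 and 953 CPM. When each library was given the cluster mix of the hydrogel library, an alternative chosen after the data were seen, Ccl2 of the class was at 2318 CPM with the CO hydrogel, 2008 CPM with the hydrogel and 3970 CPM without treatment. The log2 ratio of CO hydrogel over hydrogel was then 0.21 for Ccl2, -0.20 for Ccl7, -0.77 for Ccl3 and -0.74 for Ccl4, against 1.30, 1.25, -0.50 and 0.94 for the class as a whole. Without cluster 9 it was 0.40 for Ccl2 and -0.10 for Ccl7, and that of Ccl4 was -1.63. At the cluster mixes of the CO hydrogel and untreated libraries the ratio of Ccl2 was -0.26 and 0.11. Its sign thus depended on the mix. The differences from untreated cells also depended on the mix. For hydrogel over untreated the log2 ratios at the hydrogel cluster mix were -0.98 for Ccl2, -0.76 for Ccl7 and -0.85 for Ccr1, each now within 2-fold, and -1.37 for Ccl3. At the cluster mix of the CO hydrogel library they were -0.10, 0.02 and -0.31, with -0.53 for Ccl3, so no member was then 2-fold lower. For CO hydrogel over untreated at the hydrogel cluster mix Ccr1 was at -0.86, within 2-fold, and Ccl3 at -2.14.

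**Figure D4:**
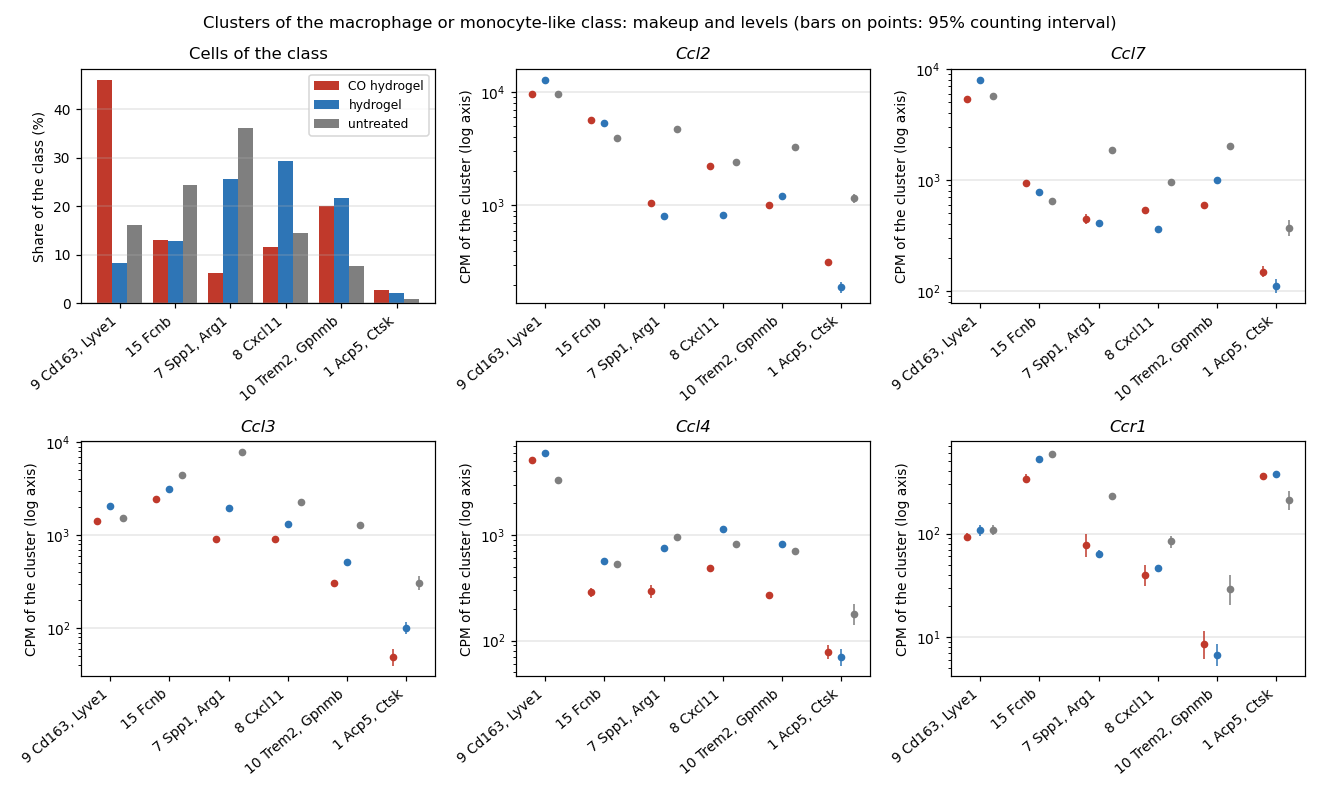
Share of the macrophage or monocyte-like class (%, first panel) and level of each gene (CPM of the cluster, log axis, other panels) in its 6 clusters, named by number and leading genes, for the CO hydrogel, hydrogel and untreated libraries, with 95% counting intervals on the points. Cluster 9 holds 46.1% of the class with the CO hydrogel, 8.40% with the hydrogel and 16.2% without treatment, and has the highest Ccl2, Ccl7 and Ccl4 in each library.

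Ccl4, an attractant of monocytes and T cells, was at 2268 CPM in macrophage or monocyte-like cells with the CO hydrogel, 1180 CPM with the hydrogel and 1261 CPM without treatment, a log2 ratio of 0.94 for CO hydrogel over hydrogel (interval 0.92 to 0.96). The order within most clusters was the other way. Ccl4 was lower in the CO hydrogel library than in the hydrogel library in 5 of 6 clusters, with log2 ratios of -0.23 in cluster 9, -0.98 in cluster 15, -1.22 in cluster 8, -1.37 in cluster 7 and -1.60 in cluster 10. Cluster 1 had 0.17, with an interval of -0.18 to 0.51. Ccl3, which binds Ccr1, was lower in the CO hydrogel library in all 6 clusters, from -0.34 in cluster 15 to -1.11 in cluster 7 for CO hydrogel over hydrogel. In cluster 7, where Ccl3 was highest without treatment, it was at 921 CPM with the CO hydrogel, 1991 CPM with the hydrogel and 7783 CPM without treatment. For the class it was at 988, 1393 and 4573 CPM, with log2 ratios of -0.50 for CO hydrogel over hydrogel (-0.52 to -0.47), -2.21 for CO hydrogel over untreated and -1.71 for hydrogel over untreated.

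T or NK-like cells were a second place of Ccl4. They had 668 CPM with the CO hydrogel, 1837 CPM with the hydrogel and 352 CPM without treatment, in 420, 514 and 99 cells. Cluster 23, led by Ccl5, Nkg7, Gzmm and Prf1, genes of cytotoxic lymphocytes, had 1283, 3348 and 1347 CPM of Ccl4 in 152, 262 and 31 cells. Cluster 21, led by Il17a and Icos, had 397, 735 and 21.9 CPM, and the untreated value lay near the 19.0 CPM of mural-like cells. At 1000 UMIs per cell, 44.5%, 60.6% and 30% of the cells of cluster 23 had a Ccl4 UMI. With under 100 untreated cells the class was not compared by the 2-fold rule.

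Neutrophil-like cells carried the highest Ccl3 and Ccr1 of the named classes. Ccl3 was at 2086 CPM with the CO hydrogel, 5024 CPM with the hydrogel and 13969 CPM without treatment, and at 1000 UMIs per cell 36.5%, 52.3% and 80.2% of the cells had a UMI, against 2.37%, 4.05% and 8.66% of mural-like cells, whose median depths were 5283.5, 7284 and 9382 UMIs. Between CO hydrogel and hydrogel, Ccl3 was at least 2-fold lower, 1 of 5 members (log2 ratio -1.27, interval -1.35 to -1.19), where 1.85% of 2967 genes were. Against untreated cells the CO hydrogel was at least 2-fold lower for 3 of 5 members, Ccl2 (-1.03), Ccl3 (-2.74) and Ccl4 (-1.40), where 4.71% of 3823 genes were. The hydrogel was lower for 1 of 5, Ccl3 (-1.48), where 2.42% of 4547 genes were. For Ccl4 the 1% of cells with the most Ccl4 held 13.2%, 48.0% and 68.4% of its UMIs in this class, and without those cells its CO hydrogel over untreated ratio was 0.05. The CO hydrogel level of Ccl4 in this class rested on 53 UMIs. The part of free RNA in the Ccl2 and Ccl4 of neutrophil-like cells was not tested. In the 2 comparisons with untreated cells the median log2 ratio of all genes was 0.72 and 0.71, and 36.5% and 33.7% of genes were at least 2-fold higher. Relative to that median Ccl3 was at -3.47 and -2.19, Ccl2 at -1.76 and -1.60, and Ccl4 at -2.13 and -1.21. Ccr1 was then at -1.26 and -1.10, and Ccl7 at 0.22 and -0.17. The untreated class was mainly cluster 17, led by Il23a and the chemokine genes Ccl3, Cxcl3 and Cxcl2, which made up 4.67%, 12.6% and 63.5% of neutrophil-like cells. Ccl3 itself was left out of the clustering.

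Ccl3 within cluster 17 was at 5009 CPM in the 21 CO hydrogel cells, 19226 CPM in the 259 hydrogel cells and 19059 CPM in the 3594 untreated cells. Hydrogel over untreated was thus a log2 ratio of 0.01 in that cluster (interval -0.02 to 0.04), where the class had -1.48. Cluster 16, with Csf3r and S100a9 among its leading genes, had 2102, 2995 and 3896 CPM, and cluster 18, led by Retnlg and Mmp8, 451, 1802 and 5835 CPM. With the cluster mix of the hydrogel library in each, Ccl3 of the class was at 2317, 5024 and 6174 CPM, which gave log2 ratios of -1.12 for CO hydrogel over hydrogel, -1.41 for CO hydrogel over untreated and -0.30 for hydrogel over untreated. Ccl2 in neutrophil-like cells was also highest in cluster 17, at 1410, 1074 and 1542 CPM, where cluster 16 had 524, 560 and 408 CPM. At the hydrogel cluster mix its CO hydrogel over untreated ratio was 0.13, against -1.03 for the class. A cluster left unnamed, led by the interferon-induced genes Rsad2 and Isg15 and with 8, 726 and 61 cells, also held Ccl3, at 4625, 7459 and 11009 CPM, and Ccr1, at 944, 534 and 941 CPM. With this cluster counted as neutrophil-like, Ccl3 of the class was at 2130, 5667 and 13938 CPM, with log2 ratios of -1.41, -2.71 and -1.30 for the 3 pairs.

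Ccr1, the member that marks receiving cells, was at 541 CPM in neutrophil-like cells with the CO hydrogel, 596 CPM with the hydrogel and 782 CPM without treatment. The log2 ratio of CO hydrogel over hydrogel was -0.14 with an interval of -0.31 to 0.03, which includes 0, and the ratios over untreated were -0.53 for the CO hydrogel and -0.39 for the hydrogel. Relative to the medians of all genes in this class over untreated, 0.72 and 0.71, these were -1.26 and -1.10. In macrophage or monocyte-like cells Ccr1 was at 112, 93.5 and 237 CPM, so the untreated library was highest. It was unevenly spread there, at 341, 526 and 589 CPM in the monocyte cluster 15 and 359, 376 and 210 CPM in cluster 1, against 93.7, 107 and 108 CPM in cluster 9 and 8.44, 6.71 and 28.7 CPM in cluster 10. In cluster 7 it was at 78.1, 63.4 and 230 CPM. Cluster 9 had the most Ccl2 and Ccl7 in each library. Ccr1 was highest in cluster 1 with the CO hydrogel and in cluster 15 in the other libraries. The division was not clean, since cluster 15 was high in both Ccl2 and Ccr1. Without treatment, cluster 7 also had more Ccl2 than cluster 15 and more Ccr1 than cluster 1. Among thinned cells of the class with a Ccl2 UMI, 10.2%, 11.2% and 20.3% had Ccr1 in the CO hydrogel, hydrogel and untreated libraries. Among those without, 4.84%, 7.02% and 22.7% did, so the untreated library went the other way.

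In fibroblast-like cells the Ccr2 ligands were within 2-fold in every pair of libraries at the class level. Ccl2 had log2 ratios of -0.28 for CO hydrogel over hydrogel (interval -0.30 to -0.27), -0.71 for CO hydrogel over untreated and -0.42 for hydrogel over untreated, and Ccl7 had -0.09, -0.22 and -0.13. Of the 3 clusters, cluster 0, led by Tnn and Prss35, had little Ccl2, at 232 CPM with the CO hydrogel, 404 CPM with the hydrogel and 781 CPM without treatment. Cluster 12, led by Ccn5, Angptl1 and Sfrp4, had 3507, 6165 and 4031 CPM, and cluster 13, with the progenitor genes Dpp4 and Pi16 among its leading genes, 4789, 7988 and 7171 CPM. Within each cluster Ccl2 was lower in the CO hydrogel library than in the hydrogel library, by log2 ratios of -0.80, -0.81 and -0.74 in clusters 0, 12 and 13, a larger difference than that of the class. Cluster 12 made up 63.9%, 49.5% and 31.2% of the class, cluster 0 made up 20.9%, 43.3% and 25.5%, and cluster 13 made up 15.2%, 7.15% and 43.3%. At the hydrogel cluster mix the ratio of CO hydrogel over hydrogel was -0.79 for Ccl2 and -0.58 for Ccl7. That of hydrogel over untreated was 0.36 for Ccl2 and 0.22 for Ccl7, opposite in sign to the class, and it was above 0 at the mixes of the other 2 libraries as well. By cluster it was -0.95 for Ccl2 in cluster 0, 0.61 in cluster 12 and 0.16 in cluster 13.

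Vessel cells differed from fibroblast-like cells in the order of the libraries. In mural-like cells Ccl2 had a log2 ratio of 0.62 for CO hydrogel over hydrogel (interval 0.59 to 0.65) and 0.07 for CO hydrogel over untreated. In endothelial-like cells it had 0.27 (0.24 to 0.30) and 0.59 (0.55 to 0.63), so the untreated library was lowest. Ccl7 was within 2-fold in both classes for all 3 pairs. The highest Ccl2 count of a single cell was 881 UMIs in an endothelial-like cell with the CO hydrogel, 846 UMIs in an endothelial-like cell with the hydrogel and 1538 UMIs in a fibroblast-like cell without treatment. The 1% of endothelial-like cells with the most Ccl2 held 22.3%, 19.0% and 17.3% of its UMIs in that class.

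Because classes differed in number, the level over all cells was also computed with the class shares of the hydrogel library. Ccl2 was then at 3489 CPM with the CO hydrogel, 2226 CPM with the hydrogel and 3890 CPM without treatment, and Ccl7 at 1341, 717 and 1135 CPM. Ccl3 was at 595, 970 and 2607 CPM, against 231, 970 and 3687 CPM with each library's own shares. Ccr1 was at 86.8, 76.8 and 143 CPM, and with the class shares of the untreated library at 132, 136 and 202 CPM, so the order of the CO hydrogel and hydrogel libraries changed with the mix. Ccl4 at 1008, 613 and 528 CPM was highest in the CO hydrogel library.

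The paired ligands were found together in single macrophage or monocyte-like cells. At 1000 UMIs per cell, 48.3% with the CO hydrogel, 20.3% with the hydrogel and 38.96% without treatment had both Ccl2 and Ccl7, where the product of the single shares was 36.8%, 11.2% and 29.4%. Of cells with a Ccl2 UMI, 69.2%, 47.8% and 58.5% also had Ccl7, against 14.6%, 10.8% and 15.6% of those without. Ccl3 with Ccl4 was at 24.2%, 18.0% and 21.5%, where the product was 17.6%, 13.2% and 19.6%. These products are of the whole class, whose clusters differ in level, and pairs within its clusters were not tested. In neutrophil-like cells Ccl3 and Ccr1 were both found in 11.9%, 20.2% and 37.6% of cells, close to the products of 13.5%, 21.1% and 37.8%.

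Over 25 combinations of class and library, the genes whose log2(CPM + 1) followed each member most closely among 9978 genes were listed by Pearson's r, as a description of points that share libraries and depth. For Ccl2 these were Bambi (0.89), Fcgrt (0.86), Cxcl1 (0.86), Ccl7 (0.85) and Tnfaip2 (0.83), and for Ccl7 they were Tnfaip2 (0.87), Ccl2 (0.85), Bri3 (0.85), Fcgrt (0.84) and Npc2 (0.83). Ccl3 was followed by Cxcl2, Ccr1 and Osm (each 0.96), Clec4d (0.95) and Il1b (0.95). Ccr1 was followed by Ccl6, Tlr2, Osm and Cxcl2 (each 0.98) and Lilrb2 (0.97). Ccl4 was followed by Tnfaip8l2 (0.92), Arrb2 (0.91), Arl5c (0.90), Myo1f (0.90) and Sla (0.89), while its r was 0.62 with Ccl3 and -0.18 with Ccl2. By r over these units, the members fell into Ccl2 with Ccl7, Ccl3 with Ccr1, and Ccl4 by itself. The units include stromal classes where Ccl3 is treated as possible background. Within neutrophil-like cells the CO hydrogel over untreated log2 ratio was -2.74 for Ccl3 and -0.53 for Ccr1.

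Other genes of the pathway were read from 7 lists for CO hydrogel over hydrogel. They were read in whole classes and not by cluster, so differences in cluster mix are not separated from these values. Of 7 other CC chemokines measured in macrophage or monocyte-like cells, 2 were at least 2-fold higher and 1 lower, where 4.21% of all genes were higher and 2.44% lower. Ccl24, an eosinophil attractant, was at 125 CPM with the CO hydrogel, 36.1 CPM with the hydrogel and 88.4 CPM without treatment, and Ccl6 at 797, 298 and 864 CPM. Ccl22 was lower with the CO hydrogel, at 1.76 CPM against 4.25 CPM with the hydrogel. Among 12 inducing cytokines and NF-kB targets, 2 were lower in that class, where 2.44% of all genes were, and 0 higher. Il1a, an alarm cytokine, was at 36.9, 83.4 and 131 CPM, and Ptgs2, the inducible cyclooxygenase, at 731, 1516 and 2820 CPM. The median of this list was -0.35, beside 0.01 for all genes. In neutrophil-like cells 2 of 10 were lower, where 1.85% of all genes were, Il1a at 19.96, 62.2 and 197 CPM and Tnfaip3, an inhibitor of NF-kB signalling, at 115, 238 and 252 CPM, with a median of -0.51 beside 0.08. In fibroblast-like cells 1 of 11 was lower, where 1.74% of 10637 genes were, Il1b at 27.5, 179 and 280 CPM, a gene at 13406, 19031 and 24196 CPM in neutrophil-like cells, and the part of free RNA in this was not tested.

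Of 4 measured factors among the other monocyte and macrophage factors, 0 differed by 2-fold in macrophage or monocyte-like cells, and the same was found for 5 in fibroblast-like and 4 in neutrophil-like cells. The atypical receptor Ackr3, a scavenger of CXC chemokines, was at 6.62, 1.93 and 5.09 CPM in macrophage or monocyte-like cells, the single gene of its list measured there. For receptor signalling and adhesion genes 0 of 10 differed by 2-fold in macrophage or monocyte-like cells and 0 of 6 in neutrophil-like cells, and Rac2 was lower in fibroblast-like cells at 3.82 CPM with the CO hydrogel against 7.72 CPM with the hydrogel, 1 of 7. Ccl5 and Ccl6 were lower in fibroblast-like cells, 2 of 6 CC chemokines, at 2.64 against 12.1 CPM and 8.04 against 22.4 CPM for CO hydrogel against hydrogel. In that class 1.74% of all genes were at least 2-fold lower for this pair. The part of free RNA in Ccl5, Ccl6 and Rac2 was not tested. Of 10 other chemokine receptors of leukocytes, 3 were measured in macrophage or monocyte-like cells, and 0 of them differed by 2-fold. Of 15 dissociation and stress genes, 0 differed by 2-fold in macrophage or monocyte-like or neutrophil-like cells, with medians of 0.11 and -0.23. In fibroblast-like cells Dnajb1, a heat shock co-chaperone, was lower at 86.1, 172 and 65.9 CPM, and the median of the 15 was -0.38.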

How the data were processed

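Raw UMI counts per gene and barcode were used as deposited, 1 filtered matrix per library. The matrices came from Cell Ranger 6.0.1 per the file headers, whereas Cell Ranger 7.0.0, Seurat 4.2.0, DESeq 1.38.0 and the build rn6 stand in the submitters' processing notes; how reads shared by related genes were assigned is not given in the sources used here. The kit was the 10x 3′ assay per the labels' protocols, so UMI counts were not scaled by transcript length and levels of different genes were not compared except as UMI ratios.

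Cells were kept from 500 UMIs and 300 genes upwards if no more than 20% of UMIs were mitochondrial. Scrublet scores then removed as doublets the top 1634, 1466 and 1083 cells (11.4%, 10.8% and 9.31%; CO hydrogel, hydrogel, untreated), at 0.8% per 1000 barcodes, since its own threshold marked 555, 521 and 0. Clustering (scanpy 1.11.5, igraph 0.11.9, Python 3.11.15) used 2000 variable genes without the members, 30 components, 20 neighbours and Leiden resolution 1. Clusters were named from marker lists with a score of at least 0.2 and at least 3 detected markers, a scoring rule set with the data in view, so the names are rebuilt and not the authors'.

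UMIs were summed per class and library. Levels have exact Poisson intervals, shares exact Clopper-Pearson intervals and log2 ratios exact conditional binomial intervals, all 95% and for counting error only. Ratios were taken in classes that reached 100 cells per library and for genes that reached 100 UMIs in the pair of libraries, and the ratio calculation was tested on simulated data. R 4.3.3 with edgeR 4.0.16 supplied TMM factors for 1 alternative and no test. The text gives every member, the 5 genes most like each member with at least 500 UMIs, and list genes past 2-fold in the macrophage or monocyte-like, neutrophil-like or fibroblast-like class. The cells with the highest Ccl2 count and the use of chemokine ratios were chosen after their values were seen. The members and lists were chosen with earlier results of these data known. Alternatives were the cell filter, doublets, scaling, thinning, clustering and background, and 3 were added after the data were seen: the hydrogel cluster mix, the class without cluster 9, and the unnamed cluster counted as neutrophil-like. The cluster mixes of the other libraries were read beside the first of these.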

Additional observations from a re-analysis of the deposited data

Results flagged for a closer look

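Some members differed in opposite directions between cell classes for the same pair of libraries, and in each case the difference was not tested. Ccl2 had a CO hydrogel over untreated log2 ratio of 0.59 in endothelial-like cells, against -0.71 in fibroblast-like cells and -1.03 in neutrophil-like cells. Ccl4 had a CO hydrogel over hydrogel log2 ratio of 0.94 in macrophage or monocyte-like cells and -0.90 in neutrophil-like cells. At the hydrogel cluster mix the values were -0.74 and -0.78, no longer opposite, and with the unnamed cluster counted as neutrophil-like the second was -2.29. Ccl4 had only 53 UMIs in neutrophil-like cells with the CO hydrogel, against 627 with the hydrogel. For CO hydrogel over untreated its log2 ratio was 0.85 in macrophage or monocyte-like cells and -1.40 in neutrophil-like cells. At the hydrogel cluster mix these were -0.52 and -0.26, and without the 1% of cells with the most Ccl4 the neutrophil-like value was 0.05. Ccl2 in neutrophil-like cells was at 0.13 at that mix. The part of free RNA in the Ccl2 and Ccl4 of neutrophil-like cells was not tested.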

How the results depend on the processing

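At the class shares of the hydrogel library, Ccr1 over all cells was at 86.8 CPM with the CO hydrogel against 76.8 CPM with the hydrogel. Ccl4 was at 1008 against 613 CPM, so both stood in the opposite order to that at each library's own shares. At the class shares of the untreated library Ccr1 was at 132 against 136 CPM and Ccl4 at 704 against 422 CPM. Under the other alternatives the log2 ratios of CO hydrogel over hydrogel over all cells moved as follows, all without a change of sign. For Ccl2, 0.50 became 0.42 after stricter filtering of cells, 0.47 when doublets were kept, 0.42 with TMM factors, 0.78 as the mean of per-cell CPM, 0.61 without the 1% of cells with the most of its UMIs and 0.55 with the background class subtracted. For Ccl7, 0.42 became 0.31 (stricter filter), 0.34 (TMM), 0.81 (per-cell mean), 0.57 (without the top 1%) and 0.50 (background). For Ccl3, -2.07 became -2.299, -2.15, -2.24 and -2.26 under the stricter filter, TMM, the per-cell mean and without the top 1%, and for Ccr1, -1.43 became -1.86, -1.51, -1.81 and -1.87. For Ccl4, -0.32 became -0.59, -0.40, -0.10 and -0.35 under those 4, and -0.41 with no doublets removed. Of the members in 5 classes, 5 ratios of CO hydrogel over hydrogel were at least 2-fold lower and 2 higher. The lower ones were Ccl3 in neutrophil-like (1.85% of all genes lower), fibroblast-like (1.74%), mural-like (0.78%) and endothelial-like cells (0.593%), and Ccr1 in fibroblast-like cells. Of these, Ccl3 outside neutrophil-like cells is treated as possible background, and free RNA was not tested for Ccr1. The higher ones were Ccl2 and Ccl7 in macrophage or monocyte-like cells (4.21% of all genes higher). With no doublets removed 8 were lower, and with the background subtracted 2 were lower and 4 higher. Within classes, reversed values among ratios of at least 2-fold were, for CO hydrogel over hydrogel, Ccl7 in macrophage or monocyte-like cells (1.25, against -0.20 at the hydrogel cluster mix and -0.10 without cluster 9) and Ccr1 in fibroblast-like cells (-1.94, against 1.14 with background subtracted). For CO hydrogel over untreated they were Ccl2 in neutrophil-like cells (-1.03, against 0.13 at the hydrogel cluster mix), Ccl4 in neutrophil-like cells (-1.40, against 0.052 without the top 1%) and Ccl4 in endothelial-like cells (1.11, against -0.56 with no doublets removed). The CO hydrogel cluster mix reversed 2 further values in macrophage or monocyte-like cells. Ccl2 went from 1.30 to -0.26 for CO hydrogel over hydrogel, and Ccl7 from -1.05 to 0.02 for hydrogel over untreated. Among smaller ratios, signs also changed at the hydrogel cluster mix or without cluster 9. In macrophage or monocyte-like cells Ccl4 changed from 0.94 to -0.74 and -1.63 for CO hydrogel over hydrogel and from 0.85 to -0.52 and -1.54 for CO hydrogel over untreated, and Ccl7 from 0.21 to -0.96 and -1.38 for the second pair. In fibroblast-like cells hydrogel over untreated changed from -0.42 to 0.36 for Ccl2 and from -0.13 to 0.22 for Ccl7. With the unnamed cluster counted as neutrophil-like, Ccl4 there changed from -0.50 to 0.82 for hydrogel over untreated. Ratios of under 2-fold changed sign under other alternatives as well. The cause was not tested. Of 32 ratios past 2-fold over all pairs, 32 stayed past it with TMM factors, 29 with the stricter filter and 27 with no doublets removed, while 9 of 18 did at the hydrogel cluster mix. Thinning to 2000 UMIs moved 62 of 75 shares of cells beyond their intervals, so shares hold only for the stated depth. No paired analysis was possible because each group has 1 library.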
